A study of Mus musculus with 64 samples.

Results

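The 9 genes described here are the BCL2 family members Bcl2, Bcl2l1, Mcl1, Bcl2a1b, Bcl2a1d, Bcl2l11, Bid, Pmaip1 and Bak1, followed in bone marrow-derived macrophages (BMMs) of the mouse. They were listed by name, with earlier results of these data known, and are 9 of the 55487 genes in the count tables. All 9 passed the filter on low counts, which left 14537 genes for testing. The 64 RNA-seq libraries are 4 in each of 16 groups. Mice of 8 to 12 weeks carried either intact Ahr (Ahr+/+, female C57BL/6JRj mice) or a deletion of Ahr in every cell of the body (Ahr-/-, C57BL/6 mice whose sex is not given in the sources used here), and Ahr encodes the aryl hydrocarbon receptor (AhR), a transcription factor that small molecules switch on. The knockout mice came from another supplier and had been crossed repeatedly to the wild-type strain. Marrow cells were grown into macrophages with supernatant of L929 fibroblasts, a source of M-CSF. In each genotype, 1 group per time point received 0.01% DMSO alone and was left unactivated. The other groups were exposed for 6 h to DMSO, to 1 µM benzo[a]pyrene (BaP, a combustion product) or to 10 µM indole-3-carbinol (I3C, a compound of cabbage-type vegetables), and then received 10000000 heat-killed Salmonella Enteritidis (hk S.E.) per ml for 3 h or 20 h. No unactivated group received a ligand, so the effect of BaP or I3C could be read only in activated cells.

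Apoptosis through mitochondria is decided by contacts between BCL2 family proteins. Guardians (BCL2, BCL-XL from Bcl2l1, MCL1 and the A1 proteins from the Bcl2a1 genes) hold the effectors BAK and BAX inactive and keep cytochrome c inside mitochondria. BH3-only proteins (BIM from Bcl2l11, BID, NOXA from Pmaip1) occupy the guardians or act on the effectors directly, and NOXA binds mainly MCL1 and A1. In macrophages, A1 is known as a target of NF-kB in cells that meet bacterial products, MCL1 as a short-lived protein whose amount follows its synthesis, and BIM as a protein that rises when growth factor is withdrawn.

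Libraries held 12152496 to 50644601 counts on genes (median 24499165), apart from 1 library of unactivated Ahr+/+ BMMs at 20 h (replicate 4) with 233047331. All 8 macrophage markers examined passed the filter, and their summed level was 18609 to 35732 CPM (counts relative to the TMM-scaled size of the library) over the libraries. In Ahr+/+ BMMs after DMSO, the macrophage sum was 26918 to 29442 CPM without and 31650 to 34773 CPM with hk S.E. at 3 h. At 20 h it was 25460 to 28848 CPM without and 18829 to 22840 CPM with hk S.E. In Ahr-/- BMMs the ranges overlapped at both times. Neutrophil markers also moved with activation. The 8 markers summed to 67.3 to 138 CPM in the unactivated libraries and to 145 to 269 CPM in the activated ones. Of these 8, 5 passed the filter, while Elane, Mpo and Ly6g never exceeded 1 CPM. The 5 went different ways. S100a8, S100a9, Ltf and Camp rose with hk S.E. at 3 h in both genotypes and Csf3r was not called there, whereas at 20 h S100a8, Camp and Csf3r rose, Ltf fell (-1.80 in Ahr+/+ and -2.36 in Ahr-/- BMMs) and S100a9 was not called. The changes of these markers accompany the activation results below, and the part of these markers in the results was not tested. Ahr itself was counted at 1.09 to 14.9 CPM in Ahr+/+ and at 5.11 to 28.1 CPM in Ahr-/- BMMs. The count covers all exons of the gene, those outside the deletion included, and therefore checks nothing about the genotype. TMM factors were 1.24 to 1.34 in unactivated libraries, 0.761 to 0.844 in libraries of activated cells at 3 h and 0.969 to 1.08 at 20 h. Scaling by library totals in their place lowered the median log2 fold change of all genes with hk S.E. by 0.67 at 3 h in both genotypes, and by 0.37 (Ahr+/+) and 0.31 (Ahr-/-) at 20 h, so directions below are relative to TMM and those that turn are named. All fold changes, standard errors (SE) and adjusted p values are from edgeR's quasi-likelihood test over all 64 libraries with Benjamini-Hochberg adjustment over 14537 genes, with a gene called changed at an adjusted p below 0.01.

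The largest activation effects among the 9 genes lay in Bcl2a1d and, except in Ahr-/- BMMs at 20 h, where Bcl2l11 changed more, in Bcl2a1b. The 2 are copies of 1 gene on chromosome 9 whose reads can be told apart only in part. Of the stretches as long as 1 read in the transcript, 52.6% were unique to Bcl2a1b and 61% to Bcl2a1d. The transcripts were 93.9% identical over 863 aligned bases. A further gene model, Gm29094, overlaps the exons of Bcl2a1b on its strand. The split between the copies is therefore uncertain and their levels per length are understated. The promoter windows of both genes and of their copy Bcl2a1a, which rose with them, are given here because they show how far the 3 copies share sequence at their starts (RefSeq, GRCm38.p6, 250 bases before to 50 after the annotated start, read 5′ to 3′ on the gene's strand). Capitals mark CACGC, the reverse complement of GCGTG, the core of the AhR response element. The windows are chr9:89199023-89199322 on the plus strand for Bcl2a1b, chr9:88731801-88732100 on the minus strand for Bcl2a1d and chr9:88956670-88956969 on the plus strand for Bcl2a1a.
Bcl2a1b: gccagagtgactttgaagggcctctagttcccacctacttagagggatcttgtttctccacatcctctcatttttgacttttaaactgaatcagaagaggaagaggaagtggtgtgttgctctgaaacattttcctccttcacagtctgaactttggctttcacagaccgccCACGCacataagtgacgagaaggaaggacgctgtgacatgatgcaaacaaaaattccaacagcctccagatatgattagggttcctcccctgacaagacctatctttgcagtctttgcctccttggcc
Bcl2a1d: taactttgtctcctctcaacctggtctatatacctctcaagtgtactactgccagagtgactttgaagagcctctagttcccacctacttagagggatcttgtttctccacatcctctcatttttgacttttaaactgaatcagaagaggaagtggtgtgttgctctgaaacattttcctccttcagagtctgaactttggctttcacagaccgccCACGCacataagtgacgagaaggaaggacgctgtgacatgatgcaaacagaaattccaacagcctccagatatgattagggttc
Bcl2a1a: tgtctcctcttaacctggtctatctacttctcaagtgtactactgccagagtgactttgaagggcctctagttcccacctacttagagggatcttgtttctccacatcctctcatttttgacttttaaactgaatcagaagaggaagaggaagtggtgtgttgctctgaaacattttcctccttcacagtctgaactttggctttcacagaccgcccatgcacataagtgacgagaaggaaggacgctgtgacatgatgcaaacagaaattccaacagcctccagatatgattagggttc

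The Bcl2a1b and Bcl2a1d windows matched at 247 of 256 aligned bases (96.5%), and those of Bcl2a1b and Bcl2a1a at 254 of 256 (99.2%). The core lay at -78 from the annotated start in Bcl2a1b and at -34 in Bcl2a1d, and these letters were not in the Bcl2a1a window. Of 32851 promoter windows of all genes, 32.4% held GCGTG on either strand. Among the members it was also found in windows of Bcl2l1 and Bcl2l11. A kappaB-like motif (GGG and CC with 5 bases between) stood in 50.8% of all windows. Among the members it was found in windows of Bcl2, Bcl2l1, Mcl1, Bcl2l11, Bid, Bak1 and Bcl2a1b. In Bcl2a1b it lay at 1 and 2 from the annotated start. The Bcl2a1d window held no match, but it ends within that same shared stretch. Whether Bcl2a1d lacks the motif can therefore not be read from its window. An ISRE-like motif (GAAA at both ends with 2 bases between) stood in 3.44% of all windows and in none of the members'. These matches describe letters in the windows only, and Pmaip1 was not matched to a window.

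In unactivated BMMs, Mcl1 was counted as the most abundant of the 9 transcripts per length. Its group means were 186 to 223 CPM per kb of exon, followed by Bcl2a1b (79.1 to 107), Bak1 (35.3 to 46.0), Bcl2l11 (21 to 24), Bcl2l1 (11.4 to 15.5), Bid (9.97 to 12.3), Bcl2a1d (7.91 to 9.02), Pmaip1 (4.29 to 4.73) and Bcl2 (0.568 to 0.912). The ranges of Bcl2l1 and Bid overlapped. The levels and shares of Bcl2a1b and Bcl2a1d are understated, for the reason given above. Mcl1 made up 49.8% of the summed CPM per kb of the 9 genes in unactivated Ahr+/+ BMMs at 3 h. After DMSO and hk S.E. for 3 h, the same share was 14.2%, while Bcl2a1b held 53.3% and Bcl2a1d 26.5%. At 20 h after hk S.E., Bcl2a1b held 46.1% and 46.9% and Bcl2a1d 30.8% and 34.3% in Ahr+/+ and Ahr-/- BMMs. Relative to TMM, the summed level was 404.6 CPM per kb in unactivated and 2141 in activated Ahr+/+ BMMs at 3 h. On that scale the smaller share of Mcl1 at 3 h went with more counts of the other transcripts in sum and not with fewer of its own. With library totals the log2 fold change of Mcl1 with hk S.E. was -0.08 in these cells and not called.

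**Figure D1:**
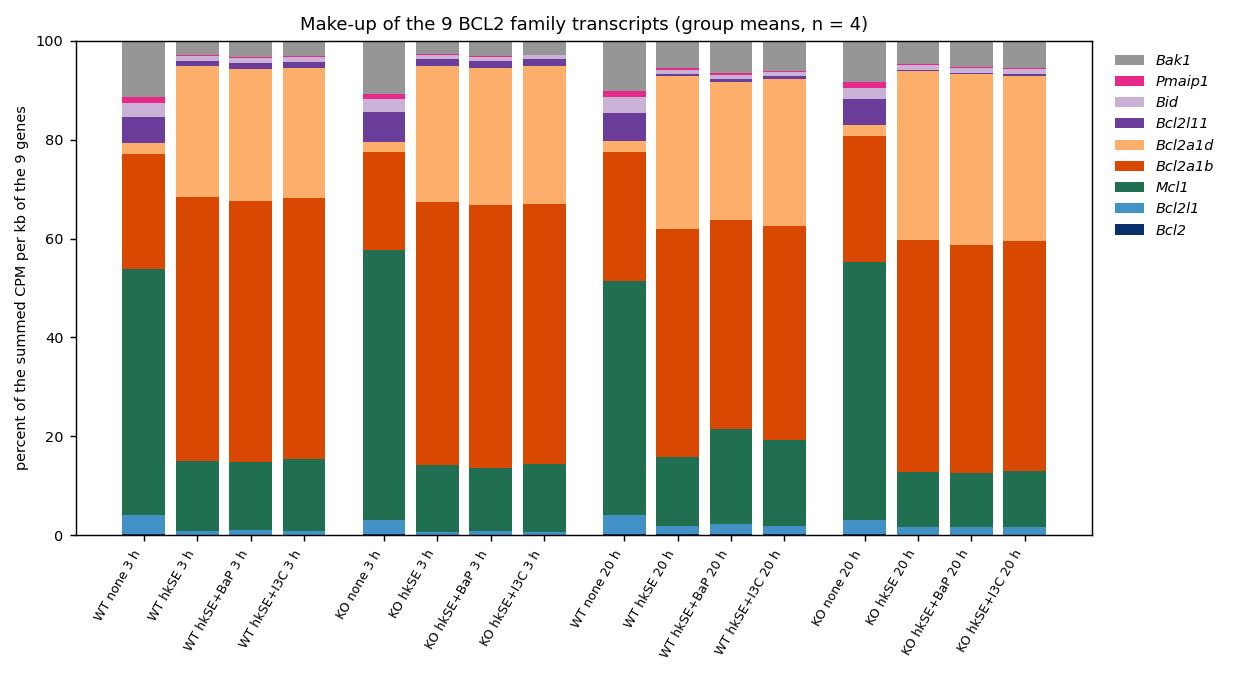
Stacked bars give the mean share (%) of each of the 9 genes in their summed CPM per kb of exon in each of the 16 groups (n = 4 libraries). Mcl1 takes 47.3% to 54.7% in the unactivated groups, and Bcl2a1b and Bcl2a1d together take most of each activated bar.

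**Figure D2:**
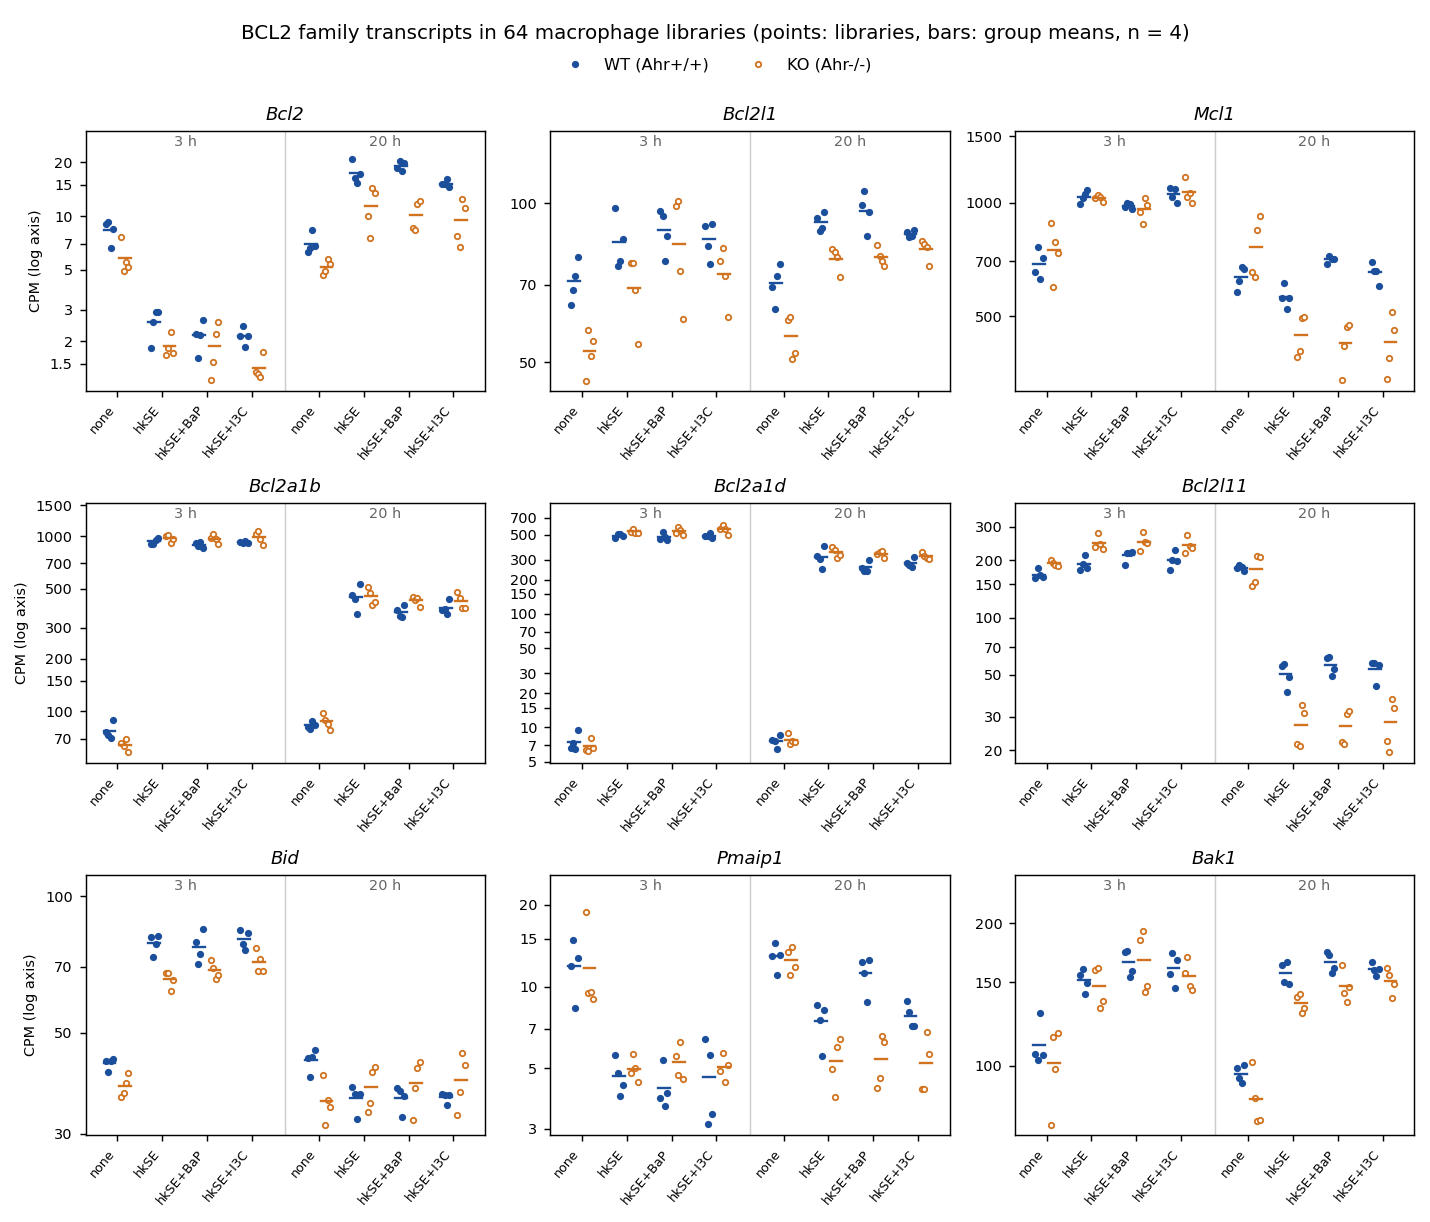
Each panel plots 1 gene in all 64 libraries, with the groups on the horizontal axis and CPM on a log axis. Points are libraries (filled Ahr+/+, open Ahr-/-) and bars are group means (n = 4). Bcl2a1b and Bcl2a1d step up with hk S.E., Bcl2 lies low at 3 h and high at 20 h, and Bcl2l11 drops at 20 h.

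Activation with hk S.E. raised A1, moved Bcl2 in opposite directions at 3 h and 20 h, and lowered the BIM gene at 20 h. In Ahr+/+ BMMs, 7 of the 9 genes were called at 3 h, where 56.6% of all genes were called, and 8 of 9 at 20 h, against 58.6%. In Ahr-/- BMMs, 8 of 9 were called at 3 h against 57.3%, and 8 of 9 at 20 h against 54.3%. Over the 4 comparisons, 21 of the 31 calls were higher and 10 lower. With library totals in place of TMM, 25 were called, 12 higher and 13 lower, while the share of higher calls among all called genes went from 42.9% to 17.4% (Ahr+/+, 3 h), 51% to 29.4% (Ahr+/+, 20 h), 44.4% to 17.8% (Ahr-/-, 3 h) and 52.1% to 31.5% (Ahr-/-, 20 h). The median log2 fold change of the 9 genes was 0.46, 0.38, 0.45 and 0.49 in that order, against -0.10, -0.00073, -0.08 and 0.02 over all genes tested. In bulk RNA, a change in the make-up of the culture and a change per cell cannot be told apart.

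**Figure D3:**
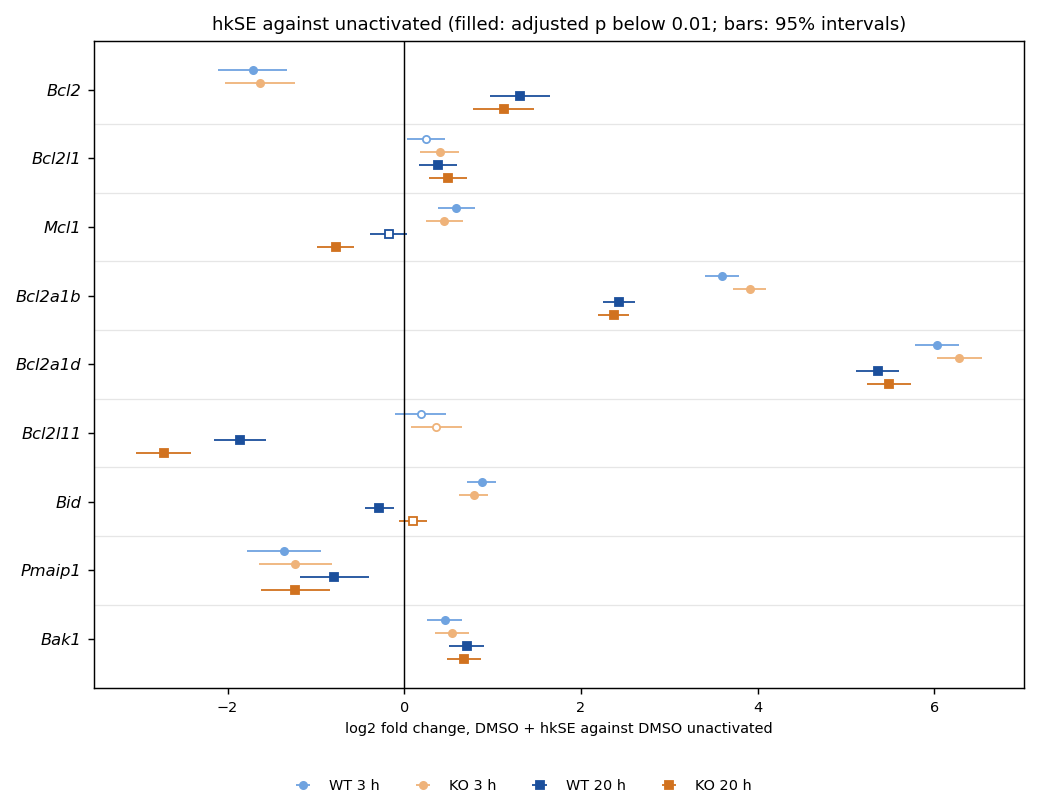
Points are log2 fold changes of DMSO and hk S.E. against unactivated for each of the 9 genes in each genotype and time point, with 95% intervals from the fit over 64 libraries. Bcl2a1d lies at 5.36 to 6.28 and Bcl2a1b at 2.37 to 3.91, Bcl2 is below 0 at 3 h and above 0 at 20 h, and Bcl2l11 reaches -2.72 in Ahr-/- BMMs at 20 h.

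Among the guardians, Bcl2a1d was counted at 6.57, 7.35, 6.51 and 9.49 CPM in unactivated Ahr+/+ BMMs at 3 h and at 464, 501, 502 and 488 CPM after hk S.E. In Ahr-/- BMMs at 3 h the values were 6.34, 6.17, 8.15 and 6.64 CPM without and 530, 564, 519 and 519 CPM with hk S.E. Every activated library stood far above every unactivated one. After 3 h it had risen 65.3-fold in Ahr+/+ and 77.9-fold in Ahr-/- BMMs, and after 20 h 41.1-fold and 44.8-fold (log2 6.03, 6.28, 5.36 and 5.48; adjusted p from 1.35e-42 to 6.64e-40). Bcl2a1b started from a higher level per length (94.4 against 8.67 CPM per kb in the same group). It was at 76.6, 72.9, 70.2 and 88.9 CPM in unactivated Ahr+/+ BMMs at 3 h and at 903, 904, 952 and 969 CPM after hk S.E. It rose 12.1-fold in Ahr+/+ and 15.0-fold in Ahr-/- BMMs after 3 h, and 5.38-fold and 5.16-fold after 20 h (adjusted p from 5.79e-39 to 3.6e-30). Both A1 genes were lower at 20 h than at 3 h of hk S.E. In Ahr+/+ BMMs at 20 h, Bcl2a1b was at 459, 438, 360 and 536 CPM and Bcl2a1d at 322, 304, 248 and 394 CPM.

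Bcl2, the founding guardian, was the least abundant of the 9 per length in the unactivated groups. In Ahr+/+ BMMs at 3 h it was at 9.01, 9.31, 6.61 and 8.49 CPM without and at 1.83, 2.55, 2.91 and 2.91 CPM with hk S.E. At 20 h it was at 6.31, 6.60, 8.34 and 6.80 CPM without and at 20.8, 16.3, 15.2 and 17.3 CPM with hk S.E. The 4 sets of libraries therefore run low after 3 h of hk S.E. and high after 20 h, with the unactivated libraries between them. Bcl2 fell at 3 h (log2 fold change -1.71 ± 0.20 SE, adjusted p = 3.41e-11) and rose at 20 h (1.31 ± 0.17 SE, adjusted p = 1.03e-09) in Ahr+/+ BMMs. It did the same in Ahr-/- BMMs (-1.63, adjusted p = 2.41e-10, and 1.12, adjusted p = 9.16e-08). The difference between the time points was itself past the threshold, with 3.02 in Ahr+/+ and 2.76 in Ahr-/- BMMs. The counts behind the low values at 3 h of hk S.E. were 16 to 54 per library, which limits their precision.

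Mcl1, the guardian with the most transcript counted per length in the unactivated groups, moved by less. In Ahr+/+ BMMs it was at 653, 761, 628 and 715 CPM without and at 991, 1028, 1055 and 1079 CPM with hk S.E. at 3 h. At 20 h it was at 581, 618, 675 and 667 CPM without and at 557, 613, 523 and 558 CPM with hk S.E. In Ahr-/- BMMs at 20 h it was at 653, 634, 846 and 921 CPM without and at 389, 404, 494 and 497 CPM with hk S.E., with no overlap. Relative to TMM, Mcl1 rose at 3 h in Ahr+/+ (0.59, adjusted p = 2.15e-06) and in Ahr-/- BMMs (0.45, adjusted p = 0.000165). Both calls at 3 h depend on the scaling, since library totals gave -0.08 (Ahr+/+) and -0.22 (Ahr-/-), neither called. After 20 h it fell in Ahr-/- BMMs (-0.78, adjusted p = 5.23e-09) and was -0.17 in Ahr+/+ BMMs (adjusted p = 0.136), where library totals gave -0.54 and a call.

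Bcl2l1, which encodes BCL-XL, was at 69.5, 63.2, 72.9 and 76.9 CPM in unactivated Ahr+/+ BMMs at 20 h and at 93.6, 88.7, 89.7 and 96.1 CPM after hk S.E. All 4 activated libraries exceeded all 4 unactivated ones. Relative to TMM it rose in 3 of the 4 comparisons (0.38, adjusted p = 0.0015 in Ahr+/+ BMMs at 20 h, and 0.40 and 0.49 in Ahr-/- BMMs at 3 h and 20 h). The value in Ahr+/+ BMMs at 3 h was 0.25 (adjusted p = 0.0428). With library totals the values at 3 h turned to -0.43 in Ahr+/+ and -0.27 in Ahr-/- BMMs and those at 20 h were not called. Leaving out replicate 2 of the unactivated Ahr+/+ group at 20 h gave an adjusted p of 0.0103 for the 20 h value, and the identifier series of the library as a covariate gave 0.0204.

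Among the BH3-only genes, Bcl2l11 was at 182, 189, 185 and 175 CPM in unactivated Ahr+/+ BMMs at 20 h and at 55.3, 57.2, 40.6 and 48.5 CPM after hk S.E. In Ahr-/- BMMs at 20 h it was at 147, 154, 210 and 208 CPM without and at 21.5, 21.2, 34.6 and 31.5 CPM with hk S.E. No activated library overlapped an unactivated one in either genotype. Bcl2l11 fell 3.63-fold in Ahr+/+ (log2 -1.86 ± 0.15 SE, adjusted p = 2.03e-16) and 6.61-fold in Ahr-/- BMMs (-2.72 ± 0.15 SE, adjusted p = 1.9e-22). At 3 h it was not called (0.18, adjusted p = 0.267, in Ahr+/+ and 0.36, adjusted p = 0.0249, in Ahr-/- BMMs). A fit with the replicate as a block called the value in Ahr-/- BMMs at 3 h (0.36, adjusted p = 0.00807), and so did DESeq2 (0.42, adjusted p = 0.00834). A fit on the compared groups alone called both (adjusted p = 0.00753 and 0.00153), and library totals turned them to -0.49 and -0.31.

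Bid, which links death receptors to mitochondria, was at 43.4, 40.9, 43.4 and 43.8 CPM in unactivated Ahr+/+ BMMs at 3 h and at 81.3, 73.6, 78.4 and 81.6 CPM after hk S.E. In Ahr-/- BMMs at 3 h it was at 36.1, 36.8, 38.8 and 40.9 CPM without and 67.9, 67.7, 61.7 and 65.4 CPM with hk S.E. Relative to TMM it rose in both genotypes at 3 h (0.88, adjusted p = 4.71e-14, and 0.78, adjusted p = 1.84e-12). Library totals gave 0.20 and 0.11, neither called. At 20 h Bid was lower after hk S.E. in Ahr+/+ BMMs (-0.28, adjusted p = 0.00196) and was at 0.10 in Ahr-/- BMMs (adjusted p = 0.291), a value that turned to -0.21 with library totals. The call at 20 h was lost without replicate 3 of the activated Ahr+/+ group (adjusted p = 0.0174) and without the deeply sequenced replicate 4 of the unactivated group (adjusted p = 0.0107).

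Pmaip1 was at 11.9, 14.8, 8.33 and 12.8 CPM in unactivated Ahr+/+ BMMs at 3 h and at 5.62, 4.81, 3.95 and 4.33 CPM after hk S.E. It fell in all 4 comparisons, by 1.36 and 0.79 (log2) at 3 h and 20 h in Ahr+/+ BMMs and by 1.23 at both times in Ahr-/- BMMs (adjusted p from 9.59e-08 to 0.000307). Bak1, the effector, was at 106, 103, 129 and 105 CPM in unactivated Ahr+/+ BMMs at 3 h and at 156, 160, 142 and 150 CPM after hk S.E. It rose in all 4 comparisons relative to TMM (0.46 at 3 h and 0.71 at 20 h in Ahr+/+ BMMs, 0.54 and 0.67 in Ahr-/- BMMs, adjusted p from 6.04e-09 to 4.57e-05). With library totals the 3 h values turned to -0.22 and -0.13 while the 20 h calls were kept, and with the identifier series of the library in the model the 3 h call in Ahr+/+ BMMs was lost (adjusted p = 0.0211).

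The hk S.E. effect differed between 3 h and 20 h for 6 of the 9 genes in each genotype, where 47.8% (Ahr+/+) and 44.7% (Ahr-/-) of all genes were called in this test. The difference, 20 h minus 3 h, was above 0 for Bcl2 alone among those called. It was below 0 in Ahr+/+ BMMs for Bcl2l11 (-2.04), Bcl2a1b (-1.17), Bid (-1.16), Mcl1 (-0.77) and Bcl2a1d (-0.67), and in Ahr-/- BMMs for Bcl2l11 (-3.09), Bcl2a1b (-1.54), Mcl1 (-1.23), Bcl2a1d (-0.80) and Bid (-0.69). The counts with library totals were 15 called over both genotypes in place of 12, with 7 above and 8 below 0 in place of 2 and 10. The calls of Bcl2a1d in Ahr+/+ (-0.37, adjusted p = 0.0195) and of Bid in Ahr-/- BMMs (-0.32, adjusted p = 0.0159) were lost with that scaling, and Bcl2l1 and Bak1 in both genotypes and Pmaip1 in Ahr+/+ BMMs were called above 0. Among all called genes the share above 0 went from 55.4% to 70.6% (Ahr+/+) and from 56.5% to 74.3% (Ahr-/-).

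Compared directly, activated BMMs at 20 h and at 3 h differed in 7 of the 9 genes in Ahr+/+ cells (59.5% of all genes) and in 6 of 9 in Ahr-/- cells (56% of all genes). In Ahr-/- cells after DMSO and hk S.E., the libraries of 3 h and of 20 h carry identifiers of different series. Time and series therefore cannot be told apart in that comparison. Bcl2 was 2.77 and 2.59 (log2) higher at 20 h in Ahr+/+ and Ahr-/- BMMs. Lower at 20 h in both genotypes were Bcl2l11 (-1.93 and -3.19), Bid (-1.13 and -0.79), Mcl1 (-0.88 and -1.20), Bcl2a1b (-1.06 and -1.10) and Bcl2a1d (-0.62 and -0.61). With library totals Bcl2a1d in Ahr-/- BMMs was at -0.24 and not called (adjusted p = 0.0181). Pmaip1 was higher at 20 h in Ahr+/+ BMMs (0.68, adjusted p = 0.00382), a call that was lost with DESeq2 size factors (adjusted p = 0.0103), with limma on the VST values (0.0106) and without any 1 of 5 libraries (0.0134 to 0.0436), which are replicates 2, 3 and 4 of 3 h and replicates 1 and 4 of 20 h. Bak1 in activated Ahr-/- BMMs was -0.12 (not called) and turned to 0.25 with library totals. In unactivated cells, 0 of 9 genes were called in Ahr+/+ BMMs by edgeR (6.07% of all genes) and 0 by DESeq2. Of the 9, 1 had an unadjusted p under 0.05 in edgeR, against 3524 of all 14537 genes. In unactivated Ahr-/- BMMs (6.98% of all genes) 1 of 9 was called, Bcl2a1b. It was at 66.2, 63.3, 70.0 and 59.0 CPM at 3 h and at 98.1, 89.9, 84.6 and 78.4 CPM at 20 h (0.44, adjusted p = 0.000181), a call lost in a fit on the compared groups alone (adjusted p = 0.0426) and with the identifier series as a covariate (0.0154). Without replicate 1 of 3 h, Bak1 was called lower at 20 h in these cells (-0.37, adjusted p = 0.00325). Over the 4 comparisons 4 calls were higher and 10 lower, and with library totals 7 were higher and 9 lower. Among all called genes of activated cells, the share higher at 20 h went from 55.5% to 70.6% (Ahr+/+) and from 56.6% to 73.9% (Ahr-/-).

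All 10 genotype calls among the 9 genes lay at 20 h of hk S.E. In the unactivated groups 0 of 9 genes were called at 3 h and at 20 h, where 1.21% and 0.702% of all genes were called. At 3 h of hk S.E. 0 of 9 were called after DMSO (2.83% of all genes), BaP (4.88%) and I3C (2.85%). At 20 h of hk S.E. 2 of 9 were called after DMSO (12.5% of all genes), 5 of 9 after BaP (23.3%) and 3 of 9 after I3C (15.6%). Of the 10 calls 9 were lower in Ahr-/- BMMs and 1 higher, and with library totals 8 were lower and 2 higher. The share of higher calls among all called genes at 20 h of hk S.E. went with that scaling from 40.6% to 61.9% (DMSO), 49.4% to 66.3% (BaP) and 47.8% to 67.9% (I3C). Over the 5 settings without a call, edgeR gave 15 of 45 values at an unadjusted p under 0.05 and DESeq2 called 1. Of all 14537 genes, edgeR gave 1452 (unactivated, 3 h), 1814 (unactivated, 20 h), 2778 (DMSO, 3 h), 3604 (BaP, 3 h) and 2928 (I3C, 3 h) under 0.05. All 16 Ahr-/- libraries of 20 h carry library identifiers of 1 series, and for activated cells at 20 h this series and the genotype cannot be told apart. A fit with the series as a covariate takes the difference between series there from unactivated libraries only. Calls that it gains or loses between the genotypes at 20 h of hk S.E. therefore cannot separate the 2. Markers of other cells also differed between the genotypes at 20 h of hk S.E. The 4 dendritic cell markers, of which Siglech and Xcr1 never exceeded 1 CPM, summed to 0.859 to 1.83 CPM in Ahr+/+ and 0.075 to 0.442 CPM in Ahr-/- BMMs after DMSO. The 4 mast cell or basophil markers summed to 0.409 to 1.34 and 0.127 to 0.30 CPM. Of these 4, only Kit passed the filter, while Mcpt8, Cpa3 and Fcer1a never exceeded 1 CPM. The neutrophil markers summed to 168 to 198 and 171 to 219 CPM after DMSO, and of the 5 tested Camp was called at 20 h, 3.06-fold higher in Ahr-/- BMMs after BaP. In unactivated BMMs at 20 h the 5 fibroblast markers summed to 0.346 to 0.923 CPM in Ahr+/+ and 0.557 to 8.35 CPM in Ahr-/- cells. The part of these markers in the genotype results was not tested.

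Bcl2l11 had the largest of these differences. At 20 h of hk S.E. it was at 55.3, 57.2, 40.6 and 48.5 CPM in Ahr+/+ against 21.5, 21.2, 34.6 and 31.5 CPM in Ahr-/- BMMs after DMSO. After BaP it was at 61.6, 61.8, 49.1 and 53.9 against 22, 21.5, 31.3 and 32.2 CPM, and after I3C at 57.5, 57.6, 43.8 and 56.1 against 22.3, 19.7, 37.4 and 33.5 CPM. All 12 Ahr+/+ libraries lay above all 12 Ahr-/- libraries. Bcl2l11 was lower in Ahr-/- BMMs by 0.89 after DMSO, 1.08 after BaP and 0.93 after I3C on the log2 scale. A fit on the compared groups alone lost the calls after DMSO (adjusted p = 0.0138) and I3C (0.012). Its hk S.E. effect at 20 h also differed between the genotypes, by -0.87 ± 0.21 SE (adjusted p = 0.00333). At 3 h of hk S.E. Bcl2l11 was the other way, at 0.37 after DMSO in Ahr-/- minus Ahr+/+ BMMs, without a call (adjusted p = 0.124).

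Bcl2 was below the Ahr+/+ level in Ahr-/- BMMs in all 8 settings (-0.20 to -0.91), and these comparisons share mice but no libraries. It was called at 20 h of hk S.E. after DMSO (-0.61, adjusted p = 0.00514), BaP (-0.91, adjusted p = 1.62e-05) and I3C (-0.67, adjusted p = 0.00192). After DMSO it was at 20.8, 16.3, 15.2 and 17.3 CPM in Ahr+/+ against 10.0, 7.57, 14.4 and 13.5 CPM in Ahr-/- BMMs. After BaP the values were 18.5, 20.3, 17.9 and 19.7 against 8.6, 8.33, 11.7 and 12.1 CPM. The call after DMSO was lost without replicate 1 of either group (adjusted p = 0.0362 without the Ahr+/+ library and 0.0253 without the Ahr-/- library), without Ahr+/+ replicate 4 (0.0113) and without Ahr-/- replicate 2 (0.0528). It was also lost with library totals (0.0169), without a filter (0.0119), on the compared groups alone (0.076) and with the identifier series as a covariate (0.0209), where the value was -0.80. The covariate fit has the limit given above. The call after I3C was lost without Ahr-/- replicate 1 (0.0158) or 2 (0.0243) and on the compared groups alone (0.0289).

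Mcl1 at 20 h of hk S.E. was at 688, 722, 710 and 707 CPM in Ahr+/+ and at 338, 416, 467 and 474 CPM in Ahr-/- BMMs after BaP. After I3C it was at 698, 659, 660 and 602 against 340, 388, 513 and 460 CPM. The genotypes did not overlap after either ligand. Mcl1 was lower in Ahr-/- BMMs after BaP (-0.74, adjusted p = 1.46e-07) and after I3C (-0.62), and was -0.34 after DMSO (adjusted p = 0.0162), which DESeq2 called (-0.35, adjusted p = 0.0067). In unactivated BMMs at 20 h, Mcl1 was at 0.27 in Ahr-/- against Ahr+/+ cells, without a call. Its hk S.E. effect at 20 h, which sets activated against unactivated cells, differed between the genotypes by -0.60 ± 0.15 SE (adjusted p = 0.0049). Pmaip1, whose protein targets MCL1, was at 12.3, 11.2, 8.81 and 12.5 CPM in Ahr+/+ against 4.22, 4.59, 6.55 and 6.27 CPM in Ahr-/- BMMs after BaP (-1.05, adjusted p = 2.29e-05). After DMSO and I3C it was at -0.48 (adjusted p = 0.078) and -0.58 (adjusted p = 0.0273). With the identifier series as a covariate both were called (-1.02, adjusted p = 0.00412, and -1.12, adjusted p = 0.000949). That fit cannot separate series from genotype here. The value after I3C was also called without Ahr-/- replicate 3 (adjusted p = 0.0087). Bcl2a1d was the 1 gene called higher in Ahr-/- BMMs, after BaP at 20 h, with 254, 239, 240 and 297 CPM against 338, 354, 356 and 311 CPM (0.40, adjusted p = 0.00125). That call was lost when the identifier series entered the model (adjusted p = 0.139), with the same limit on that fit.

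Bcl2l1 was also below the Ahr+/+ level in Ahr-/- BMMs in all 8 settings (-0.09 to -0.44), without a call. In unactivated cells at 3 h it was at 64.1, 68.6, 72.9 and 79.1 CPM in Ahr+/+ against 46.0, 57.5, 51.4 and 54.9 CPM in Ahr-/- BMMs, without overlap (-0.44, adjusted p = 0.0119). A limma-voom fit with the replicate block gave an adjusted p of 0.00503 and DESeq2 0.00368. Bid and Bak1 were not called in any of the 8 settings. Their values ran from -0.30 to 0.13 for Bid and from -0.21 to 0.01 for Bak1.

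**Figure D4:**
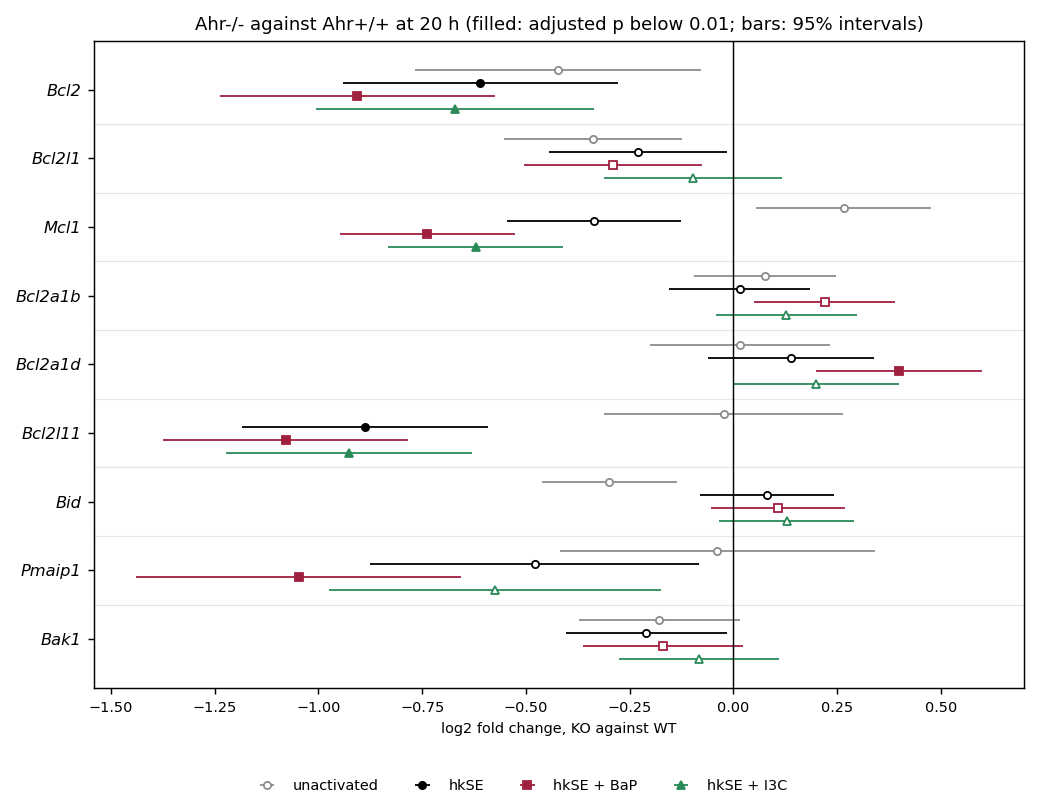
Points are log2 fold changes of Ahr-/- against Ahr+/+ BMMs at 20 h for each of the 9 genes, without hk S.E. and with it after each exposure (DMSO, BaP, I3C), with 95% intervals. Bcl2l11, Bcl2 and, after the ligands, Mcl1 lie to the left of 0, and Bcl2l11 reaches -1.08 after BaP.

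The hk S.E. effect differed between genotypes at 20 h for 2 of 9 genes, Mcl1 and Bcl2l11, where 4.41% of all genes were called, and at 3 h for 0 of 9, where 0.0138% were called. At 3 h edgeR gave 1 value at an unadjusted p under 0.05 (Bcl2a1b, 0.31), against 867 of all 14537 genes, and DESeq2 called 0. Bid at 20 h was at 0.38 (adjusted p = 0.0248), and a fit with the replicate block called it (adjusted p = 0.00764). The call of Mcl1 was lost without any 1 of 7 libraries (adjusted p from 0.0105 to 0.0257) and that of Bcl2l11 without any 1 of 6 (0.0103 to 0.0165). The libraries concerned are replicates 1 and 2 of activated Ahr-/- BMMs and replicates 3 and 4 of unactivated Ahr-/- BMMs for both genes, replicate 2 of activated Ahr+/+ BMMs for both, replicate 1 of that group for Bcl2l11, and replicates 1 and 2 of unactivated Ahr+/+ BMMs for Mcl1. On the compared groups alone neither was called (0.0573 and 0.0441), and that of Mcl1 was also lost with library totals (0.0128) and without a filter (0.0146). With library totals Bid was called (0.44, adjusted p = 0.00887), and the share above 0 among all called genes went from 47.3% to 62.4%. The Ahr-/- libraries of 20 h also differed among themselves. Over DMSO, BaP and I3C, replicates 1 and 2 held 19.7 to 22.3 CPM of Bcl2l11 and replicates 3 and 4 held 31.3 to 37.4 CPM. The corresponding ranges were 6.73 to 10.0 and 11.2 to 14.4 CPM for Bcl2, and 338 to 416 and 460 to 513 CPM for Mcl1. Libraries with the same number were taken as 1 mouse, so these are 4 mice seen 3 times and not 12 mice.

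No ligand effect was called. Against DMSO, edgeR called 0 of 9 genes in each of the 8 comparisons, where 0.0482% (BaP, Ahr+/+, 3 h), 0.131% (I3C, Ahr+/+, 3 h), 0.234% (BaP, Ahr+/+, 20 h), 0.509% (I3C, Ahr+/+, 20 h), 0.0275% (BaP, Ahr-/-, 3 h), 0.0206% (I3C, Ahr-/-, 3 h), 0.0138% (BaP, Ahr-/-, 20 h) and 0.206% (I3C, Ahr-/-, 20 h) of all genes were called. Of the 72 values 7 had an unadjusted p under 0.05, and DESeq2 called 0. Of these 7, 4 lay with BaP in Ahr+/+ BMMs at 20 h. Of all 14537 genes, 390, 744, 1510, 831, 862, 860, 258 and 672 were under 0.05, in the order of the comparisons above. The log2 fold changes ran from -0.42 to 0.59, and their 95% intervals lay between -0.88 and 0.98. In data simulated for BaP against DMSO in Ahr+/+ BMMs at 20 h, the test called 21 of 50 genes changed 1.5-fold and 39 of 50 changed 2-fold. It called 37 of 50 changed 0.5-fold and 48 of 50 changed 4-fold. Among genes drawn from all those tested, the call alone could therefore miss effects of 2-fold as well as smaller ones. For the 9 genes, the 95% intervals above, each taken alone, did not reach 2-fold in either direction. The simulated counts followed the fitted trend of the spread and held no differences between mice.

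The value of Bcl2 after I3C in Ahr-/- BMMs at 3 h was -0.42 (adjusted p = 0.921) at mean levels of 1.41 against 1.87 CPM, and the 4 other values farthest from 0 lay in Ahr+/+ BMMs at 20 h with BaP. Mcl1 was at 557, 613, 523 and 558 CPM after DMSO and at 688, 722, 710 and 707 CPM after BaP, without overlap (0.33, 95% interval 0.12 to 0.54, adjusted p = 0.145). Pmaip1 was at 8.58, 7.55, 5.56 and 8.22 CPM after DMSO and at 12.3, 11.2, 8.81 and 12.5 CPM after BaP, also without overlap (0.59, interval 0.20 to 0.98, adjusted p = 0.164). The A1 genes were on the other side. Bcl2a1b was at 459, 438, 360 and 536 CPM after DMSO and at 378, 349, 346 and 406 CPM after BaP (-0.28, adjusted p = 0.119), and Bcl2a1d was at -0.30 (adjusted p = 0.166). Fits with the replicate block called Bcl2a1b (-0.27, adjusted p = 0.00737 with edgeR). After I3C, Mcl1 was at 0.22 (adjusted p = 0.824) and Bcl2a1b at -0.20 (adjusted p = 0.613). In Ahr-/- BMMs at 20 h, Mcl1 was at 389, 404, 494 and 497 CPM after DMSO and at 338, 416, 467 and 474 CPM after BaP.

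**Figure D5:**
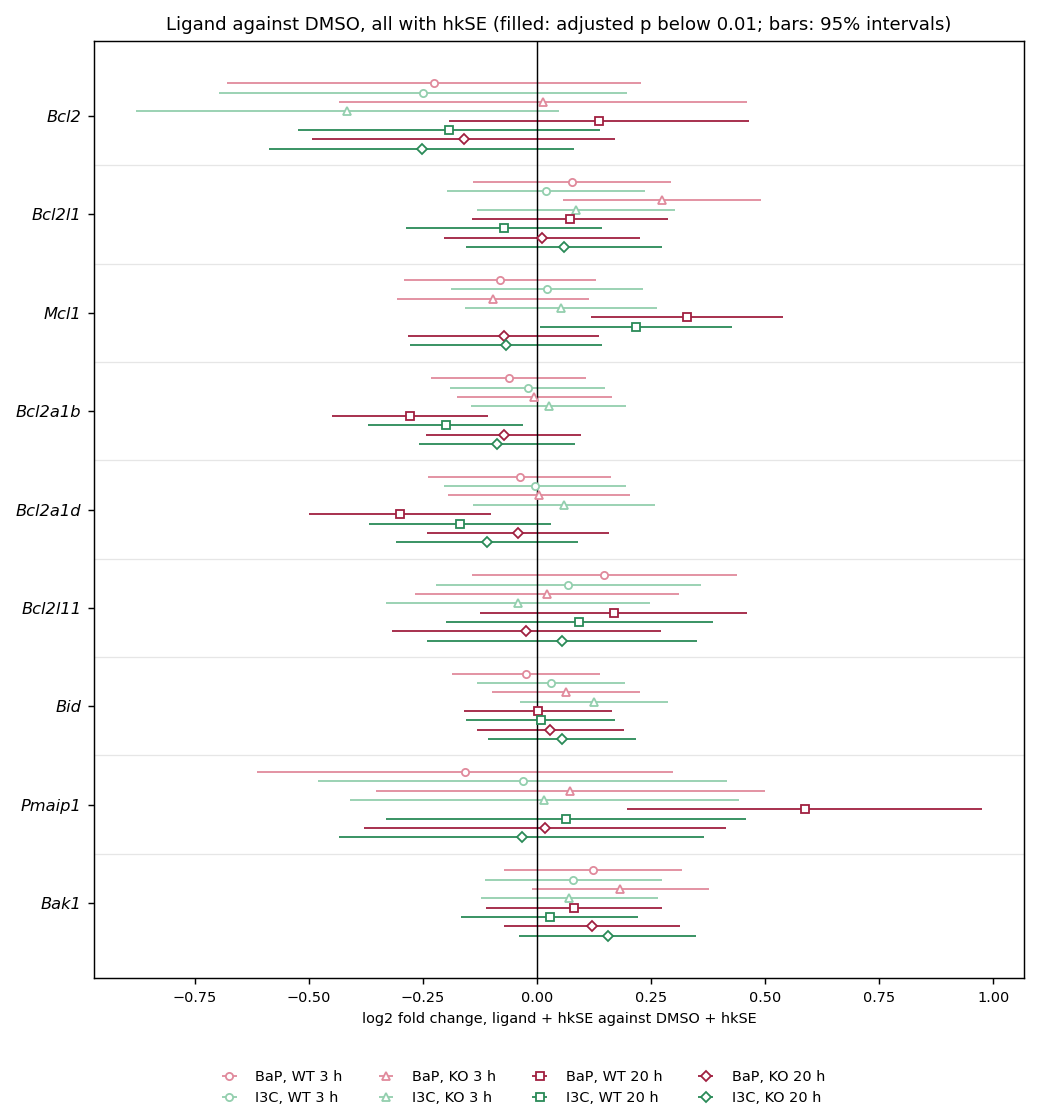
Points are log2 fold changes of BaP or I3C against DMSO in activated BMMs for each of the 9 genes, genotype and time point, with 95% intervals. The points lie between -0.42 and 0.59, and none was called at an adjusted p below 0.01.

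Whether a ligand effect depended on genotype was tested directly. EdgeR called 0 of 9 genes for BaP at 3 h (0.0138% of all genes) and 0 of 9 for BaP at 20 h, I3C at 3 h and I3C at 20 h (0% of all genes each, with 679, 241 and 287 genes at an unadjusted p under 0.05). Of the 36 values of the members, 2 had an unadjusted p under 0.05, both for BaP at 20 h (Mcl1 0.40, adjusted p = 0.752, and Pmaip1 0.57, adjusted p = 0.984), and DESeq2 called 0. BaP and I3C were given at 1 µM and 10 µM, so they were not compared at a matched dose. Set side by side, 0 of 9 genes were called between them in Ahr+/+ BMMs at 3 h (0.11% of all genes) and 20 h (0.282%) and in Ahr-/- BMMs at 3 h (0.0206%) and 20 h (0.186%). Of these 36 values 1 had an unadjusted p under 0.05, Pmaip1 in Ahr+/+ BMMs at 20 h, at 11.2 ± 1.71 CPM after BaP and 7.82 ± 0.81 CPM after I3C (SD, n = 4; 0.52, adjusted p = 0.463), and DESeq2 called 0. In that comparison 830 of all 14537 genes had an unadjusted p under 0.05.

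Of the 43 other genes of the family and of the mitochondrial pathway, 39 passed the filter. With hk S.E., 30 of them were called in Ahr+/+ BMMs at 3 h (18 higher, 12 lower), 24 at 20 h (16 and 8), and 29 (18 and 11) and 23 (16 and 7) in knockout cells at these times. These are 76.9%, 61.5%, 74.4% and 59% of the 39, against 56.6%, 58.6%, 57.3% and 54.3% of all genes, so that the shares at 20 h were near the background. With library totals the calls were 10 higher and 21 lower, 10 and 12, 9 and 21, and 11 and 12. Their median log2 fold change was 0.32, 0.25, 0.25 and 0.21 in that order. By list, 3 of 4 other guardians passed the filter and all 3 rose in each comparison relative to TMM, although with library totals the guardian Bcl2l2 was not called at 3 h. Of the 5 caspase inhibitors 3 rose, and 2 in Ahr-/- BMMs at 20 h. Of the 7 other BH3-only genes 6 passed, and 2 fell at 3 h in each genotype.

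In each direction, 5 genes are named, those called alike in all 4 comparisons with the largest smallest change. Among those that rose, Bcl2a1a, the third A1 copy, was at 6.19 and 7.18 (log2) after 3 h and 20 h in Ahr+/+ cells and at 5.89 and 6.88 in Ahr-/- BMMs. Its mean level was 1.38 to 2.39 CPM without hk S.E., and it was higher at 20 h than at 3 h of hk S.E. (means of 129 and 142 against 202 and 212 CPM), the other way round from Bcl2a1b and Bcl2a1d, with the reservation on shared reads given above. Bcl2a1c had 0 or 1 counts per unactivated library and 2 to 20 after hk S.E. Cflar, the inhibitor of caspase-8 activation, was at 4.41, 3.59, 4.47 and 3.21 (Ahr+/+ 3 h and 20 h, then Ahr-/-). Birc3, an NF-kB-driven ubiquitin ligase that holds caspases in check, was at 3.05, 2.34, 2.72 and 2.00, and Cycs, cytochrome c, at 1.70, 1.38, 1.53 and 1.29. Among those that fell, the BH3-only gene Bmf was at -6.86, -3.32, -7.64 and -3.41. Foxo3, a transcription factor known to act on Bcl2l11, was at -3.76, -1.13, -3.23 and -1.07. Birc5, the mitotic inhibitor survivin, was at -0.76, -6.78, -0.95 and -6.62, Bcl2l12 at -1.62, -0.97, -1.31 and -0.89, and the effector caspase Casp6 at -0.66, -1.36, -0.97 and -1.22.

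With a ligand, edgeR called 0 of the 39 genes in any of the 8 comparisons, with 13 of 312 values at an unadjusted p under 0.05, and DESeq2 called 0. The counts of all genes under 0.05 in these comparisons are those given above for the members. Between the genotypes, several were called in activated cells at 20 h. Ddit3, the stress-induced factor CHOP, was lower in Ahr-/- BMMs after DMSO (-0.88, adjusted p = 1.96e-05), BaP (-0.74) and I3C (-0.66), and Bbc3, the BH3-only gene of PUMA, after DMSO (-1.16, adjusted p = 6e-04) and BaP (-0.80). Birc3 was lower after each (-0.22, -0.39 and -0.42), and Htra2 after DMSO and BaP (-0.37 and -0.40). Bcl2l2, the guardian BCL-W, was higher after each (0.33, 0.39 and 0.32) and so was the channel gene Vdac1 (0.23, 0.35 and 0.29). After BaP alone among the 3, Marchf5 (-0.62) was called lower and Huwe1 (0.29) and the low-count Bcl2a1c higher. Without ligand and hk S.E. at 3 h, Birc3 (0.28) and Birc5 (-1.0) were called. At 3 h of hk S.E., Birc5 (-1.19 after DMSO, -0.90 after BaP and -1.09 after I3C) and Casp8 (-0.36, -0.39 and -0.33) were lower in Ahr-/- BMMs, Foxo3 was higher after DMSO and I3C (0.68 and 0.61), and Bcl2l2 after DMSO (0.30). The hk S.E. effect at 20 h differed between the genotypes for Birc3 (-0.34, adjusted p = 0.00503) and Ddit3 (-1.42, adjusted p = 1.27e-05). With library totals, Casp8 after I3C at 3 h, Birc3 and Htra2 after DMSO and Bbc3, Htra2 and Marchf5 after BaP at 20 h, and the test by genotype of Birc3 were not called.

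Across the 16 group means of log2 CPM, the members fell into unlike patterns, given here as Pearson's r over groups that share mice and a flow cell. The r values are relative to TMM and were not computed with library totals. Bcl2a1b and Bcl2a1d ran together (r = 0.97), Bak1 ran with both (0.89 and 0.94), and Pmaip1 ran against both (-0.90 and -0.86). Mcl1 and Bcl2l11 ran together (0.89), and Bcl2 ran against Bid (-0.90), Mcl1 (-0.81) and Bcl2l11 (-0.79). Among 12015 protein-coding genes, the 3 most like Bcl2a1d were Cxcl2 (0.997), Socs3 and Il1b, all genes that bacterial products switch on, and those most like Bcl2a1b were Lcp2 (0.996), Nfkbia and Pde4b. Those most like Bcl2 were Ufl1 (0.993), Srr and Alg2. For Bcl2l11 they were Cdkn1c (0.993), a cell cycle inhibitor, Ecm1 and Cyth1. For Mcl1 they were Fabp4 (0.987), Ctss and C3ar1, and for Bid Psd4 (0.994), Hacd2 and H2afy. For Bak1 they were Ube2l6 (0.981), Slc7a8 and Atg4d, for Pmaip1 Dhrs3 (0.973), Dnmt3a and Inpp4a, and for Bcl2l1 F7 (0.944), Gramd1b and Tubb4a.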

How the data were processed

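RNA of BMMs was sequenced by the authors as stranded mRNA libraries, paired-end, on 1 flow cell, with base calls from bcl2fastq 2.19.0.316. They aligned the trimmed reads to mm10 with HISAT2 2.1.0 and counted read pairs on exons of GENCODE M22 with HTSeq 0.9.1 (intersection-strict, reverse strand). The deposited counts are not normalized. The deposited log2 values (VST), made by the authors with DESeq2, served as an alternative. Of all pairs, 74.9% to 80.8% were assigned to genes. The 5 entries that name no gene, among them 12.4% to 15.8% not uniquely aligned, entered neither library sizes nor tests. As reads with several hits are not counted, genes with near-identical copies are understated.

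Counts were fitted in R 4.3.3 with edgeR 4.0.16 (TMM, filterByExpr with a min.count of 10, 16 group means, 48 residual and 5.06 prior degrees of freedom). CPM are counts relative to the TMM-scaled size of the library, and CPM per kb divide by the exon length of GENCODE M21 (GRCm38). Log2 CPM for the likeness of patterns used a prior count of 2. The members and lists were chosen with earlier results of these data known. Named pathway genes are up to 5 per direction called alike in all 4 hk S.E. comparisons, those called for a ligand or genotype, and Bcl2a1a and Bcl2a1c, and 1 gene that this rule names is not reported here. Motifs were searched on both strands.

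Groups follow the sample titles. The study's methods give 4 mice per genotype, and equal replicate numbers within a genotype were taken as 1 mouse. Deviations from group means correlated above 0.1 in 104 of 112 same-number library pairs in Ahr-/- and in 54 of 112 in Ahr+/+ BMMs, so the numbers are a weaker hint in Ahr+/+ cells. If they are not mice, the p-values measure only the spread between these libraries, which may be technical. No 2 libraries were identical.

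Alternatives were DESeq2 1.42.0, its size factors in edgeR, edgeR on the groups compared, no filter, a threshold of 0.05, limma 3.58.1 on VST values, replicate blocks (edgeR and limma-voom), the identifier series of a library as a covariate, and the omission of 1 library at a time. Scaling by library totals was added after the TMM factors were seen. The test was run on data simulated for BaP against DMSO in Ahr+/+ BMMs at 20 h, where 2 of 14414 genes were called that had not been changed. Sequence handling used Biopython 1.88 under Python 3.11.15, and figures matplotlib 3.10.9. Protein sequences and RT-qPCR values were not analysed here.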

Additional observations from a re-analysis of the deposited data

Results flagged for a closer look

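In 6 of 144 sets of 4 libraries, 1 library stood apart from its group. The measure was the gap to its nearest neighbour divided by the range of the set, both on log2 CPM (critical value 0.829). Chance alone gives about 1 in 20 such sets. Bak1 in unactivated Ahr+/+ BMMs at 3 h was at 129 CPM in replicate 3 against 103 to 106 CPM in the others (ratio 0.879). Bcl2l11 was at 190 CPM in replicate 1 of Ahr+/+ BMMs after BaP at 3 h against 218 to 221 CPM (0.937), and at 43.8 CPM in replicate 3 of Ahr+/+ BMMs after I3C at 20 h against 56.1 to 57.6 CPM (0.902). Bid was at 40.9 CPM in replicate 2 of unactivated Ahr+/+ BMMs at 3 h against 43.4 to 43.8 CPM (0.871), and at 34.7 CPM in replicate 3 of Ahr+/+ BMMs after I3C at 20 h against 36.4 to 36.7 CPM (0.86). Pmaip1 in unactivated Ahr-/- BMMs at 3 h was at 18.8 CPM in replicate 1 against 9.04 to 9.55 CPM (0.925).

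Effects that differed between groups by a direct test were found for 2 genes between the genotypes and for 6 between the times. The hk S.E. effect at 20 h was lower in Ahr-/- than in Ahr+/+ BMMs by 0.60 for Mcl1 and 0.87 for Bcl2l11 on the log2 scale (differences of -0.60 and -0.87). The effect at 20 h minus that at 3 h, in Ahr+/+ and then in Ahr-/- BMMs, was 3.02 and 2.76 for Bcl2, -0.77 and -1.23 for Mcl1, -2.04 and -3.09 for Bcl2l11, -1.16 and -0.69 for Bid, -1.17 and -1.54 for Bcl2a1b, and -0.67 and -0.80 for Bcl2a1d.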

How the results depend on the processing

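Of 324 values (9 genes in 36 comparisons), DESeq2 changed the call of 3, its size factors of 2, limma on the VST values of 2, no filter of 2, the identifier covariate of 7 and edgeR on the groups compared of 10, and none of these turned a direction, counted where a value was called in either fit or had an unadjusted p under 0.32 in both. With library totals in place of TMM, 294 kept direction and call, 9 lost the call, 11 gained one and 10 turned. Those that turned are Bcl2l1 (-0.43), Mcl1 (-0.082), Bcl2l11 (-0.49) and Bak1 (-0.22) with hk S.E. in Ahr+/+ BMMs at 3 h, Bcl2l1 (-0.27), Mcl1 (-0.22), Bcl2l11 (-0.31) and Bak1 (-0.13) in Ahr-/- BMMs at 3 h, Bid (-0.21) in Ahr-/- BMMs at 20 h, and Bak1 at 20 h against 3 h in activated Ahr-/- BMMs (0.25). The replicate block called 1 ligand value, Bcl2a1b after BaP in Ahr+/+ BMMs at 20 h, in place of 0, in edgeR and in limma-voom (1 each). In edgeR it changed 3 of 252 values, those named beside the results, and no other call. Genotype calls were 10, against 6 on the groups compared and 17 at a threshold of 0.05. Calls for the hk S.E. effect by genotype were 2, against 1 without a filter and 0 on the groups compared. Leaving out 1 library gave 30 to 32 hk S.E. calls, 9 to 11 genotype calls, 13 to 15 time calls, 0 to 3 calls for hk S.E. by genotype, and 104 to 107 calls of pathway genes, and changed 34 of 3168 values. The cause of these changes was not tested. Depth limits Bcl2 at 3 h of hk S.E. (16 to 54 counts) and Bcl2a1c.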

Other observations

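Within the activated Ahr-/- libraries of 20 h, replicates 3 and 4 also held more Bid and Pmaip1 than replicates 1 and 2. Bid was at 32.1 to 37.8 CPM in replicates 1 and 2 and at 41.1 to 45.1 CPM in replicates 3 and 4, and Pmaip1 at 3.94 to 4.97 and 5.67 to 6.81 CPM, over DMSO, BaP and I3C. In unactivated Ahr-/- BMMs at 20 h, Bcl2l11 was at 147 and 154 CPM in replicates 1 and 2 and at 210 and 208 CPM in replicates 3 and 4. The replicates were split here after their values were seen, and no test was made.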
